A study of Mus musculus with 12 samples.

Results

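The suppressor of cytokine signalling (SOCS) family was followed in bone marrow-derived macrophages (BMDMs) by all 8 of its genes, Cish and Socs1 to Socs7. They were taken by symbol from 43131 genes in the deposited counts, and each gene is represented by its transcript with the most counts. The cells came from C57BL/6 mice that carry floxed tlr4 alleles (tlr4f/f) or the same alleles together with Cre under the control of the lysM locus, which is the gene Lyz2 (tlr4f/f-lysM-cre). Marrow cells were cultured with 50 ng/mL of M-CSF for 7 days, after which LPS, the bacterial ligand of TLR4, was added at 1 µg/mL for 6 h (LPS+) or was left out (LPS-). Each of the 4 groups had 3 libraries. Both genotypes carry the floxed alleles, and Cre from lysM acts in myeloid cells only as far as that locus is active. The mice's age is not given in the sources used here. The study calls its replicates independent, but the sources used here do not say whether the libraries of a group came from separate mice or cultures, so p-values measure the spread between these libraries, which may be technical.

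The SOCS proteins are the classical negative feedback of JAK-STAT signalling. A cytokine binds its receptor, JAK kinases phosphorylate STAT factors, and the STATs switch on Cish, Socs1, Socs2 or Socs3, whose products then bind receptor or kinase through an SH2 domain and recruit an E3 ubiquitin ligase through the SOCS box. In macrophages SOCS1 is known for restraining interferon signalling and SOCS3 for restraining IL-6 signalling through gp130, and both are known to rise after LPS, in part through the cytokines that LPS induces. CIS, the product of Cish, and SOCS2 are feedback products of STAT5, whereas SOCS4 to SOCS7 are linked mostly to receptor tyrosine kinases and the insulin receptor.

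The headings of 2 column groups may be exchanged, so every comparison is given in both readings. Tlr4, the targeted gene, was measured at 76.7 to 147 CPM (counts per 1e+06 gene counts, TMM scaled) in the LPS- tlr4f/f columns and at 95.1 to 117.1 CPM in the LPS- tlr4f/f-lysM-cre columns. It was at 24.3 to 31.1 CPM in the LPS+ tlr4f/f columns and at 24.6 to 27.5 CPM in the LPS+ tlr4f/f-lysM-cre columns, so it followed the LPS heading and not the genotype heading. Lyz2, the locus that carries Cre, was at 5949 CPM or more in all 6 LPS- libraries and at 75.6 CPM or less in all 6 LPS+ libraries. Il1b, a cytokine gene that LPS induces, was at 6.92 CPM or less in both tlr4f/f groups and at 1640 CPM or more in both tlr4f/f-lysM-cre groups. If the headings LPS- tlr4f/f-lysM-cre and, in turn, LPS+ tlr4f/f were exchanged, Tlr4 and Lyz2 would be low with Cre and Il1b high with LPS. The floxed part of Tlr4 is not given in the sources used here, and counts over the whole transcript cannot isolate it. Groups below are named by the headings of the columns, and "with the exchange" means that the columns headed LPS- tlr4f/f-lysM-cre are read as LPS+ tlr4f/f and those headed LPS+ tlr4f/f as LPS- tlr4f/f-lysM-cre. Libraries held 33577087 to 56445268 gene counts. Between replicates the estimated biological variation (as a coefficient) was 37.3% in LPS- tlr4f/f, 34.9% in LPS- tlr4f/f-lysM-cre, 8.51% in LPS+ tlr4f/f and 8.73% in LPS+ tlr4f/f-lysM-cre.

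Macrophage markers (7 genes, among them Adgre1 and Csf1r) summed to between 4071 and 9320 CPM, and none was at 0 in any group. Markers of fibroblasts and stroma (6 genes, among them Col1a1) summed to 655, 60.6 and 9.04 CPM in the LPS- tlr4f/f libraries and to 921, 137 and 1463 CPM in the LPS- tlr4f/f-lysM-cre libraries. They summed to between 20.2 and 44.0 CPM in the 6 LPS+ libraries. Neutrophil markers reached 33.6 CPM in 1 LPS- tlr4f/f-lysM-cre library and were at 6.13 CPM or less in the others. Endothelial markers reached 7.28 CPM, and the sums of T cell, B cell, NK cell, mast cell and basophil, dendritic cell and erythroid markers were at 2.25 CPM or less in every library.

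Sequences of Cish, Socs1 and Socs3 are shown because these genes moved most, together with the motifs that STAT factors are known to bind. Promoters of 4 of the 8 genes were found in RefSeq's table for GRCm38.p6 (Cish, Socs1, Socs3 and Socs4). Capitals mark a match to GAS (TTCNNNGAA), the site of STAT dimers, or to ISRE (GAAANNGAAA), the interferon-stimulated response element. Both strands were searched. The Socs1 stretch covers the 250 bases before its RefSeq start, and the Socs3 stretch those of the same 250 bases that no GENCODE M21 exon of Socs3 overlaps. The Cish stretch covers 5 bases before its RefSeq start and 25 after it.
Socs1, chr16:10785537-10785786, minus strand: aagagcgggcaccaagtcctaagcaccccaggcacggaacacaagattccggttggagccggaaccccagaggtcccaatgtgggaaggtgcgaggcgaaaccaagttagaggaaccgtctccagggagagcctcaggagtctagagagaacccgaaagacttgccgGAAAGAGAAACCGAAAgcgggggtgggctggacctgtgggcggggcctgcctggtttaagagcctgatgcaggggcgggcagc
Socs3, chr11:117969452-117969616, minus strand: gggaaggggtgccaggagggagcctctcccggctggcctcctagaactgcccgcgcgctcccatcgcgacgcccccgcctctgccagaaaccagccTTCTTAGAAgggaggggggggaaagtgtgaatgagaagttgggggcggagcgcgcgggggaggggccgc
Cish, chr9:107296654-107296683, plus strand: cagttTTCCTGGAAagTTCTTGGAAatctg

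Socs1 held 2 overlapping ISRE matches, which begin 83 and 77 bases before the start. Socs3 held 1 GAS match, 154 to 146 bases before the start. Cish held 2 GAS matches just after its RefSeq start, at bases 1 to 9 and 12 to 20. The Socs4 window held neither motif, nor a match to the NF-kB motif GGGANNTTCC, which was also absent from the other 3 windows. Over 32851 promoters, the 250 bases before the start held GAS in 7.02%, ISRE in 2.98% and the NF-kB motif in 1.21%, and over the whole windows of 300 bases, as for Cish, GAS was found in 8.30%. These matches are descriptions of letters and not of binding. In GENCODE M21 (GRCm38), Cish lies at chr9:107296026-107302784 on the plus strand, Socs1 at chr16:10782240-10785536 on the minus strand and Socs3 at chr11:117966079-117970047 on the minus strand. The Cish and Socs3 stretches thus lie inside the GENCODE genes, whose starts are further upstream than the RefSeq starts used here. Positions of their matches hold for the RefSeq starts only.

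Socs3 had the widest range of the family. Its levels were 10.6, 9.70 and 1.18 CPM in the LPS- tlr4f/f libraries and 2174, 2483 and 1621 CPM in the LPS- tlr4f/f-lysM-cre libraries. They were 1.99, 3.20 and 1.96 CPM in the LPS+ tlr4f/f libraries and 469.9, 463 and 479 CPM in the LPS+ tlr4f/f-lysM-cre libraries. Both tlr4f/f-lysM-cre groups were thus above every tlr4f/f library, and the LPS- tlr4f/f-lysM-cre group was above the LPS+ tlr4f/f-lysM-cre group without overlap. The 2 low groups overlapped. Per kb of transcript, Socs3 ranked 100 of 43131 genes in the LPS- tlr4f/f-lysM-cre columns and 452 in the LPS+ tlr4f/f-lysM-cre columns, against 9276 in the LPS- tlr4f/f and 11088 in the LPS+ tlr4f/f columns.

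Socs1, the inhibitor of JAKs and of interferon signalling, had the same order of groups. It was at 1.91, 2.23 and 2.54 CPM in the LPS- tlr4f/f libraries and at 88.2, 232 and 97.9 CPM in the LPS- tlr4f/f-lysM-cre libraries. In the LPS+ tlr4f/f libraries it was at 1.09, 1.66 and 0.808 CPM, and in the LPS+ tlr4f/f-lysM-cre libraries at 47.6, 59.1 and 53.9 CPM. No 2 of the 4 groups overlapped. The coefficient of variation was 57.8% in the LPS- tlr4f/f-lysM-cre columns, where replicate 2 stood highest, and 10.8% in the LPS+ tlr4f/f-lysM-cre columns. Per kb, Socs1 ranked 931 and 1879 in those groups and 10175 and 11068 in the LPS- tlr4f/f and the LPS+ tlr4f/f columns.

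Cish was nearly silent in both tlr4f/f groups. Its levels were 0.171, 0.722 and 0.112 CPM in the LPS- tlr4f/f libraries, where replicate 3 held 6 counts, and 0.335, 0.538 and 0.327 CPM in the LPS+ tlr4f/f libraries. The LPS- tlr4f/f-lysM-cre libraries were at 44.8, 6.00 and 3.61 CPM, a coefficient of variation of 127%, and the LPS+ tlr4f/f-lysM-cre libraries at 14.4, 14.2 and 15.5 CPM. The mean of the first of these groups was higher (18.1 ± 23.1 CPM against 14.7 ± 0.697 CPM, SD, n = 3), but 2 of its 3 libraries were below every library of the second, so these neighbours did not differ beyond their spread.

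The Cish level of 44.8 CPM came from the library in which 6 of the 11 tested genes of a list of JAK-STAT ligands also stood highest among the 3 LPS- tlr4f/f-lysM-cre libraries (Csf2, Csf3, Il27, Il6, Lif and Osm). The other 5 stood highest elsewhere, and Il10 was lowest in that library (67.2 CPM against 131 and 172 CPM). The share of all genes that stood highest in that library is not given here, so the count cannot be read as particular to the ligands. Csf2, which encodes GM-CSF, a cytokine known to signal through STAT5, was at 104, 1.63 and 1.24 CPM in the 3 LPS- tlr4f/f-lysM-cre libraries in the same order. Osm was at 82.4, 12.4 and 12.8 CPM there, Il6 at 1303, 444 and 471 CPM and Csf3 at 708, 91.0 and 190 CPM. In the LPS+ tlr4f/f-lysM-cre libraries, where Cish was at 14.2 CPM or more, Csf2 was at 0.311 to 1.24 CPM. The part of these cytokine genes in the level of Cish was not tested.

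Socs2, a feedback product of STAT5, was the least abundant member per kb in every group but the LPS- and LPS+ tlr4f/f columns, where Cish was lower still. It was at 0.581, 0.369 and 0.149 CPM in the LPS- tlr4f/f libraries and at 0.754, 0.973 and 0.808 CPM in the LPS+ tlr4f/f libraries. In the LPS- tlr4f/f-lysM-cre libraries it was at 2.04, 0.375 and 2.15 CPM, and in the LPS+ tlr4f/f-lysM-cre libraries at 2.40, 2.70 and 4.80 CPM. In contrast to Cish, Socs1 and Socs3, the LPS+ tlr4f/f-lysM-cre columns were the highest for Socs2, without overlap with any other group. Within the LPS- tlr4f/f and the LPS- tlr4f/f-lysM-cre columns, Socs2 and the stromal marker sum placed the 3 libraries in the same order. In the LPS+ tlr4f/f-lysM-cre libraries, however, Socs2 was highest while the stromal sum was 44.0, 32.8 and 30.1 CPM, the reverse of the order of Socs2. In the LPS+ tlr4f/f libraries (24.9, 20.3 and 20.2 CPM) the 2 orders also differed. The part of stromal cells in the Socs2 values of the LPS- columns was not tested. In bulk RNA, a change in the number of cells of a type and a change in RNA per cell cannot be told apart.

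**Figure D1:**
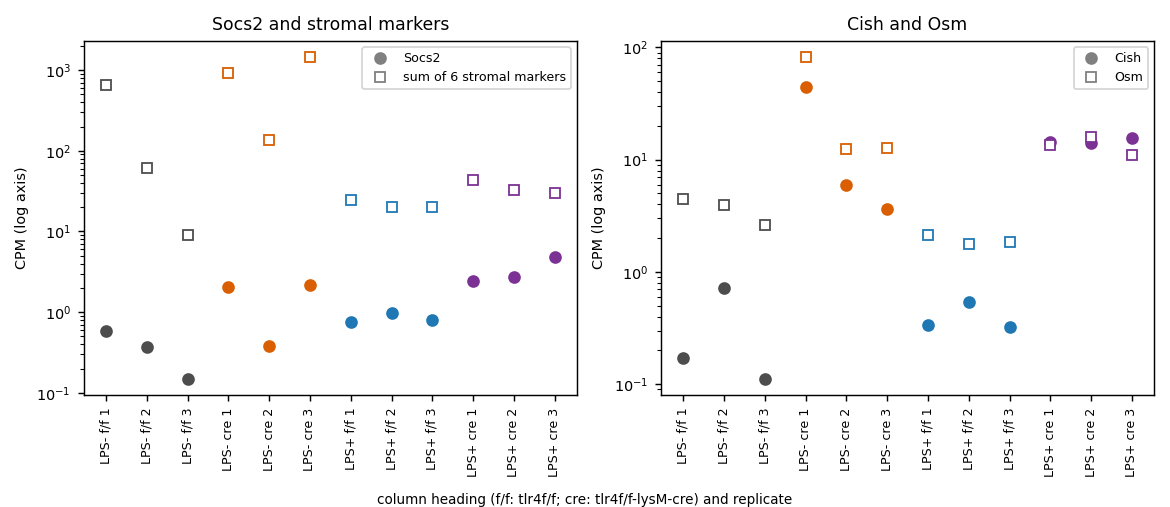
Left, CPM on a log axis of Socs2 (filled circles) and of the summed stromal markers (open squares) in each of the 12 libraries, and right, the same for Cish and the cytokine gene Osm. Colours are the 4 column headings, and the LPS- cre 1 library has both the highest Cish (44.8 CPM) and the highest Osm (82.4 CPM).

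Socs4, Socs5, Socs6 and Socs7 varied less between groups than Socs1 and Socs3. Socs4 was between 14.7 and 19.1 CPM over all 12 libraries, and each neighbouring pair of groups overlapped. Socs5, which is linked to degradation of the EGF receptor, was at 29.4 to 50.0 CPM in the LPS- tlr4f/f and 17.9 to 32.9 CPM in the LPS- tlr4f/f-lysM-cre columns, and at 33.9 to 39.3 CPM in the LPS+ tlr4f/f and 25.7 to 28.5 CPM in the LPS+ tlr4f/f-lysM-cre columns. Socs6, a relative of Socs7 that binds receptor tyrosine kinases, was at 21.9 to 45.7 CPM and 17.4 to 27.6 CPM in the LPS- tlr4f/f and the LPS- tlr4f/f-lysM-cre columns. It was at 41.9 to 46.6 CPM in the LPS+ tlr4f/f and 23.6 to 26.8 CPM in the LPS+ tlr4f/f-lysM-cre columns. Both genes had lower means in the tlr4f/f-lysM-cre columns, the opposite of Socs1 and Socs3.

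Socs7 was the only one of Socs4 to Socs7 with higher means in both tlr4f/f-lysM-cre groups. It was at 25.9, 32.2 and 31.7 CPM in the LPS- tlr4f/f libraries and at 62.7, 113 and 42.2 CPM in the LPS- tlr4f/f-lysM-cre libraries. In the LPS+ tlr4f/f libraries it was at 35.2, 34.9 and 29.8 CPM, and in the LPS+ tlr4f/f-lysM-cre libraries at 46.8, 51.3 and 48.8 CPM. The 2 high groups overlapped, as did the 2 low groups. The transcript with the most counts of Socs7 is a RefSeq non-coding model that shares reads with the coding transcripts.

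**Figure D2:**
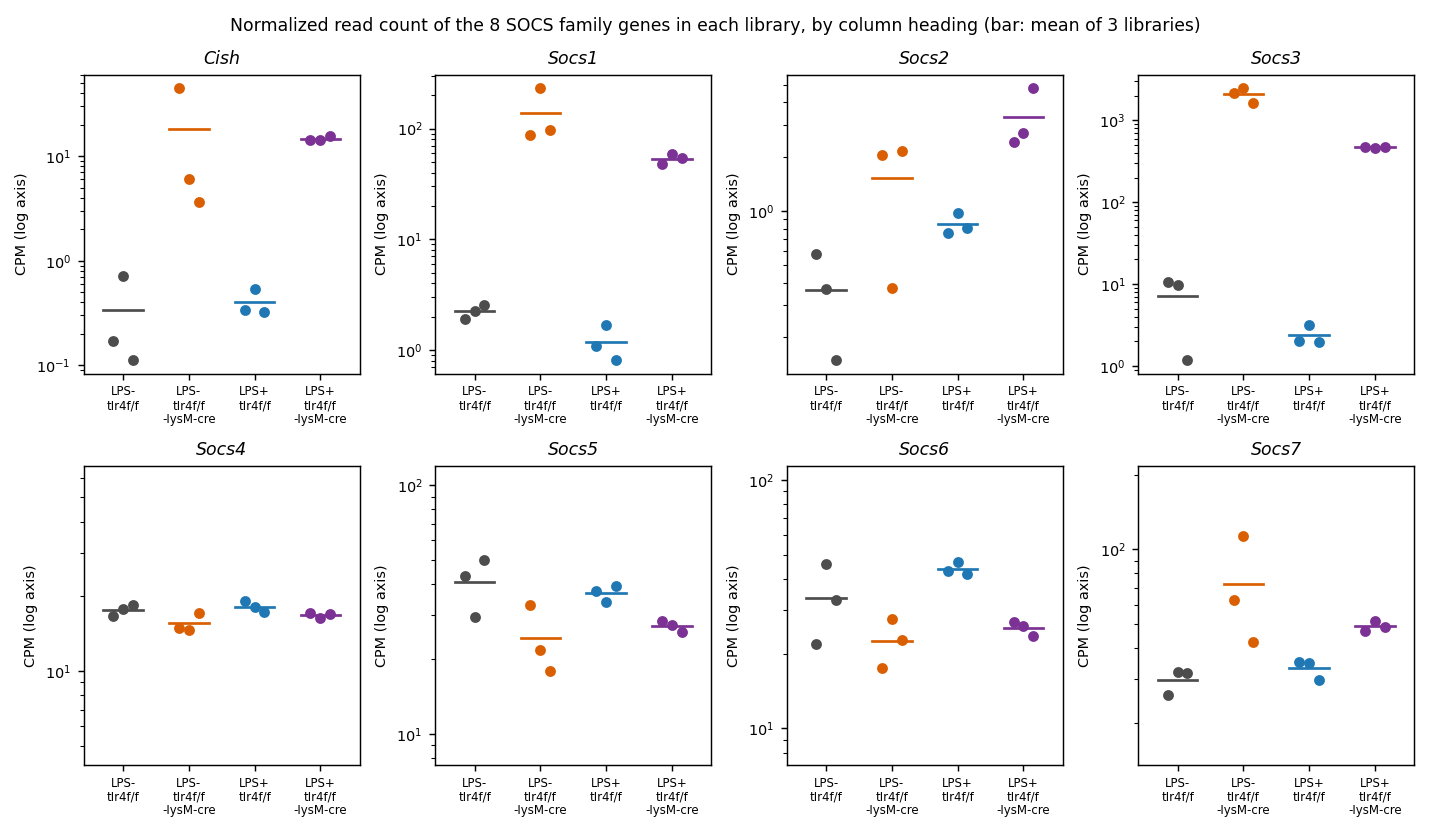
CPM on a log axis of the 8 SOCS genes in the 12 libraries (points) by column heading, with the mean of each group as a bar. Cish, Socs1 and Socs3 are higher in every tlr4f/f-lysM-cre library than in any tlr4f/f library, whereas Socs4 lies between 14.7 and 19.1 CPM throughout.

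The order of the members changed between groups. Per kb of transcript, Socs5 (8.34 ± 2.14, SD, n = 3) and Socs4 (8.20 ± 0.409) had the highest mean CPM per kb of the family in the LPS- tlr4f/f columns, where Socs1 was at 1.66 ± 0.233 and Socs3 at 2.63 ± 1.91. In the LPS+ tlr4f/f columns Socs4 was again among the highest at 8.44 ± 0.404 CPM per kb, and Socs3 was at 0.872 ± 0.259 CPM per kb. Socs3 led in the LPS- tlr4f/f-lysM-cre columns with 766 ± 159.9 CPM per kb, followed by Socs1 at 104 ± 60.2 CPM per kb. It also led in the LPS+ tlr4f/f-lysM-cre columns at 172 ± 3.09 CPM per kb, with Socs1 at 39.9 ± 4.30 CPM per kb, while Socs4 to Socs7 were at 4.14 to 7.82 CPM per kb.

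**Figure D3:**
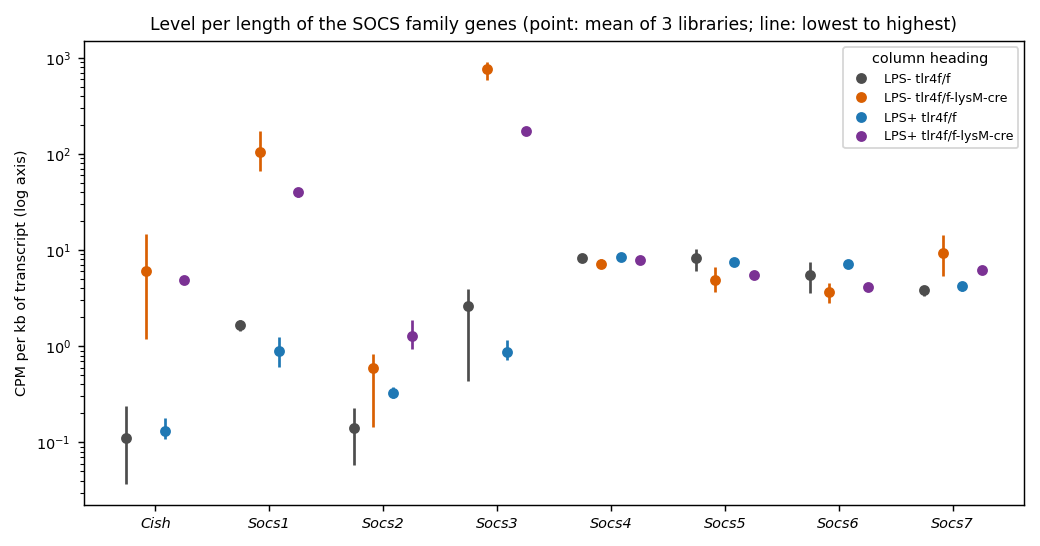
Mean CPM per kb of transcript on a log axis (points) with the lowest and highest of 3 libraries (lines) for each SOCS gene and column heading. Socs3 and Socs1 stand above Socs4 to Socs7 in both tlr4f/f-lysM-cre groups and below them in both tlr4f/f groups.

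The comparison of LPS- tlr4f/f-lysM-cre with LPS- tlr4f/f asks, as headed, what Cre changed in resting cells, and with the exchange what LPS changed in tlr4f/f cells. Cish, Socs1, Socs3 and Socs7 were higher in the LPS- tlr4f/f-lysM-cre columns. The log2 differences were 8.17 ± 0.98 (SE) for Socs3 (edgeR adjusted p = 0.00194), 5.95 ± 0.47 for Socs1 (adjusted p = 0.000654), 5.73 ± 1.33 for Cish (adjusted p = 0.0174) and 1.26 ± 0.35 for Socs7 (adjusted p = 0.0296), n = 3 libraries a group. That is a fold of 288 for Socs3, 61.7 for Socs1, 53.1 for Cish and 2.40 for Socs7. Thus 4 of 8 members passed the test (an adjusted p below 0.05) and all 4 were higher, against 37.3% of 14635 genes tested that passed and 17.9% that passed as higher. Cish and Socs2, at 6 to 45 and 8 to 34 counts in LPS- tlr4f/f, passed the filter on low counts only through the LPS- tlr4f/f-lysM-cre columns. A higher level there was thus fixed in advance for both, and Cish is 1 of the 4. Socs1 and Socs3 also met the study's criteria for a differentially expressed gene (DEG, a fold above 2 and an adjusted p below 0.01), which 17.1% of genes met. The median log2 difference was 1.65 over the members and -0.08 over all genes.

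Socs2, Socs5, Socs6 and Socs4 did not pass in that comparison, with log2 differences of 2.04 ± 0.83 (adjusted p = 0.0961, edgeR), -0.77 ± 0.29 (adjusted p = 0.0832), -0.58 ± 0.30 (adjusted p = 0.171) and -0.19 ± 0.16 (adjusted p = 0.392). Their groups overlapped. Socs2 did pass with DESeq2 (2.11, adjusted p = 0.0261), with all 12 libraries in a single edgeR fit (adjusted p = 0.0191) and without replicate 2 of LPS- tlr4f/f-lysM-cre (2.51, adjusted p = 0.0451). Socs5 passed in the single fit (-0.76, adjusted p = 0.0159) and without replicate 1 of LPS- tlr4f/f-lysM-cre (-1.03, adjusted p = 0.0454).

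The size of the Cish difference rested on single libraries, being 3.84 on the log2 scale without replicate 1 of LPS- tlr4f/f-lysM-cre and 6.96 without replicate 2 of LPS- tlr4f/f. Cish passed no longer without replicate 1 of LPS- tlr4f/f (edgeR adjusted p = 0.0538) or without its replicate 3 (adjusted p = 0.0506), nor without the filter on low counts (adjusted p = 0.0532), and Socs7 no longer without any single one of the LPS- tlr4f/f libraries or without replicate 1 of LPS- tlr4f/f-lysM-cre (adjusted p = 0.0596 to 0.0794), so that 2 members were left without LPS- tlr4f/f replicate 1 or 3. Without the 3 libraries whose stromal sum was above 500 CPM, a choice made after seeing the data, 1 library remained headed LPS- tlr4f/f-lysM-cre, its spread was taken from the 2 LPS- tlr4f/f libraries left, and 2 members passed, Socs1 at 6.64 (adjusted p = 0.0364) and Socs7 at 1.86 (adjusted p = 0.0472), while Socs3 was at 8.86 (adjusted p = 0.0949) and Cish at 3.86 (adjusted p = 0.160). Of all genes, 3.28% passed with those libraries left out.

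The comparison of LPS+ tlr4f/f-lysM-cre with LPS+ tlr4f/f asks, as headed, what Cre changed in cells given LPS, and with the exchange what LPS changed in tlr4f/f-lysM-cre cells. It joined the groups with the smallest spread, and 7 of the 8 members passed the test. Higher in the LPS+ tlr4f/f-lysM-cre columns were Socs3 by 7.65 ± 0.15 on the log2 scale (edgeR adjusted p = 1.27e-09), Socs1 by 5.54 ± 0.20 (adjusted p = 7.00e-08), Cish by 5.23 ± 0.17 (adjusted p = 9.03e-11), Socs2 by 1.97 ± 0.29 (adjusted p = 7.03e-05) and Socs7 by 0.55 ± 0.07 (adjusted p = 3.09e-05). Socs6 was lower at -0.79 ± 0.07 (adjusted p = 6.16e-07) and Socs5 at -0.45 ± 0.07 (adjusted p = 0.000146). Socs4 was at -0.12 ± 0.07 (adjusted p = 0.202), although its groups did not overlap.

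Of all 14540 genes tested in that comparison 61.4% passed, 30.5% as higher and 31.0% as lower, so the count of 7 members is read against a high background. In size, 4 members (Cish, Socs1, Socs2 and Socs3) met the DEG criteria, against 21.7% of genes. The folds were 201 for Socs3, 46.4 for Socs1, 37.4 for Cish and 3.92 for Socs2. The median log2 difference was 1.26 over the members and -0.02 over all genes. Leaving out any single library left 7 members past the test, and with all 12 libraries in a single fit Socs5 (edgeR adjusted p = 0.168) and Socs7 (adjusted p = 0.155) passed no longer.

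**Figure D4:**
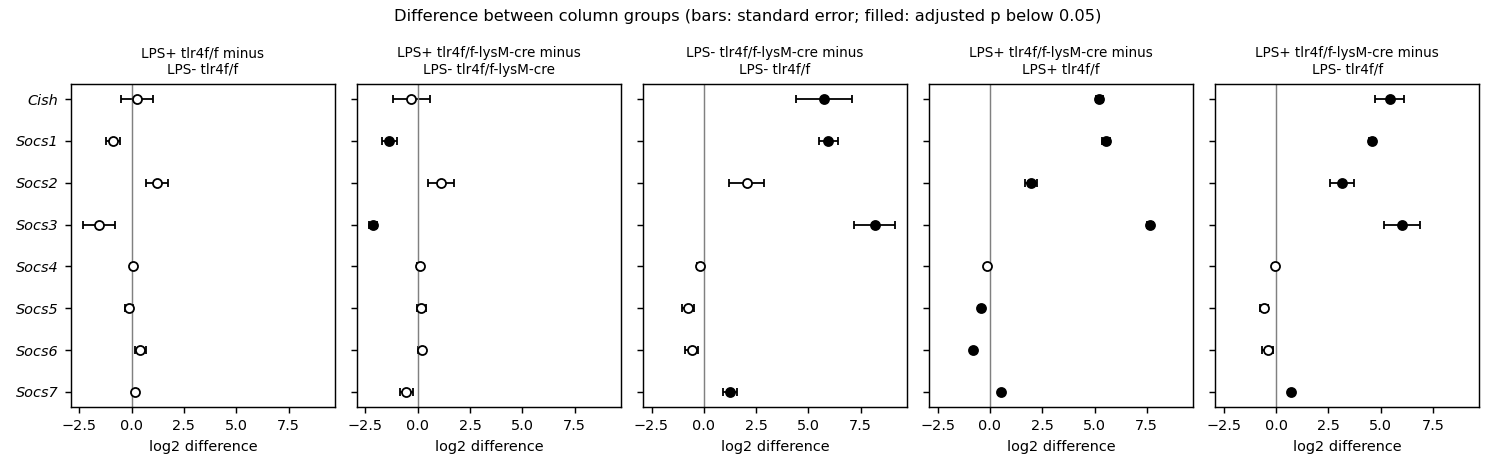
Log2 differences with their standard errors for the 8 SOCS genes in 5 comparisons of column groups, filled where the adjusted p was below 0.05. Socs3 reaches 8.17 and 7.65 where tlr4f/f-lysM-cre and tlr4f/f columns are compared and -2.14 between the 2 tlr4f/f-lysM-cre groups.

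The 2 tlr4f/f-lysM-cre groups were then compared. As headed this is the LPS response of tlr4f/f-lysM-cre cells, and with the exchange it is the difference of tlr4f/f-lysM-cre from tlr4f/f cells after LPS. Socs3 fell by 2.14 on the log2 scale (SE 0.17, edgeR adjusted p = 0.00113), a fold of 4.41, from 2093 ± 437 to 471 ± 8.44 CPM (SD, n = 3). Socs1 fell by 1.36 (SE 0.36, adjusted p = 0.0345), a fold of 2.57, from 139 ± 80.6 to 53.5 ± 5.76 CPM. These 2 of 8 members passed, both as lower, against 26.7% of 14234 genes that passed and 14.2% that passed as lower. Socs3 alone met the DEG criteria, which 6.08% of genes met. The median log2 difference was -0.09 over the members and 0.03 over all genes.

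The other 6 members did not pass between these groups. Socs2 was at 1.11 ± 0.64 (edgeR adjusted p = 0.240) with no overlap of its groups, Socs7 at -0.55 ± 0.32 (adjusted p = 0.242) and Cish at -0.30 ± 0.87 (adjusted p = 0.823). Socs4, Socs5 and Socs6 were at 0.11, 0.17 and 0.18 with adjusted p-values of 0.551, 0.605 and 0.468. Socs1 passed no longer without any single one of the LPS+ tlr4f/f-lysM-cre libraries (edgeR adjusted p = 0.104 to 0.128), which left 1 member. Without replicate 1 of LPS- tlr4f/f-lysM-cre Cish turned to 1.60 ± 0.24 (adjusted p = 0.00888), and without its replicate 3 Socs7 passed at -0.85 (adjusted p = 0.0466), which made 3 members in each case.

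With replicate 2 as the only LPS- tlr4f/f-lysM-cre library, the other 2 having a stromal sum above 500 CPM, 6 members passed between these groups, against 49.9% of all genes under that setting. The spread then came from the LPS+ tlr4f/f-lysM-cre libraries alone, so the lone library was assumed to vary as they do. Socs3 was at -2.40, Socs1 at -2.12 and Socs7 at -1.22, while Socs2 was at 3.13, Cish at 1.29 and Socs5 at 0.31 (edgeR adjusted p = 0.0330 for Socs5 and lower for the others). Socs3 and Socs1 kept their direction with that library alone, and Cish turned.

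The 2 tlr4f/f groups were compared next. As headed this is the LPS response of tlr4f/f cells, and with the exchange it is the difference of tlr4f/f-lysM-cre from tlr4f/f cells at rest. No member passed the edgeR test, 1 had an unadjusted p below 0.05 (Socs1), and DESeq2 also called 0, against 1.27% of 14701 genes that passed. Socs3 was at -1.57 ± 0.76 (adjusted p = 0.262), Socs1 at -0.89 ± 0.34 (adjusted p = 0.175) and Socs2 at 1.21 ± 0.53 (adjusted p = 0.216). The groups did not overlap for Socs1 and Socs2. Socs6, Cish, Socs7, Socs4 and Socs5 were at 0.41, 0.26, 0.18, 0.07 and -0.12 on the same scale. The median was 0.12 over the members and -0.03 over all genes. Without replicate 3 of LPS- tlr4f/f, in which Socs3 was at 1.18 CPM and the stromal sum at 9.04 CPM, Socs3 passed at -2.08 ± 0.25 (adjusted p = 0.00973).

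The LPS+ tlr4f/f-lysM-cre columns against the LPS- tlr4f/f columns keep their headings in both readings. Cish, Socs1, Socs2, Socs3 and Socs7 were higher, so 5 of 8 members passed against 40.8% of 14584 genes that passed and 20.4% that passed as higher. Cish and Socs2, at 6 to 45 and 8 to 34 counts in LPS- tlr4f/f, passed the filter on low counts here only through the LPS+ tlr4f/f-lysM-cre columns. Being higher was thus fixed in advance for these 2 genes. The log2 differences were 6.03 ± 0.85 for Socs3 (edgeR adjusted p = 0.00322), 5.43 ± 0.69 for Cish (adjusted p = 0.00232), 4.58 ± 0.16 for Socs1 (adjusted p = 0.000124), 3.16 ± 0.57 for Socs2 (adjusted p = 0.00683) and 0.71 ± 0.11 for Socs7 (adjusted p = 0.00394). The first 4 met the DEG criteria, against 13.4% of genes. Socs5 was at -0.59 ± 0.20 (adjusted p = 0.0539), Socs6 at -0.40 ± 0.26 (adjusted p = 0.254) and Socs4 at -0.07 ± 0.09 (adjusted p = 0.568). The median was 1.93 over the members and -0.05 over all genes. Socs7 passed no longer with all 12 libraries in a single fit (adjusted p = 0.0633), and Cish was at 6.66 without replicate 2 of LPS- tlr4f/f. Socs5 passed without that library (-0.78, adjusted p = 0.00521) and with DESeq2 (adjusted p = 0.0406), and Socs6 without replicate 1 of LPS- tlr4f/f (-0.63, adjusted p = 0.0269).

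The interaction of genotype and LPS over all 12 libraries is the same contrast in both readings. No member passed (edgeR), 0 had an unadjusted p below 0.05, and DESeq2 also called 0, against 6.99% of 15775 genes. Socs7 was at -0.73 ± 0.39 (adjusted p = 0.294), Socs3 at -0.56 ± 0.81 (adjusted p = 0.734), Cish at -0.52 ± 1.29 (adjusted p = 0.850) and Socs1 at -0.46 ± 0.52 (adjusted p = 0.649). The standard errors of Cish and Socs3 leave wide limits. Without the 3 libraries with a stromal sum above 500 CPM, 1 member passed (Socs7, at -1.28), against 14.1% of all genes under that setting. Replicate 2 was then the only LPS- tlr4f/f-lysM-cre library, and its Socs7 level was the highest of that group (113 CPM against 62.7 and 42.2 CPM). Its group had no spread of its own and the spread came from the other groups, so this call cannot decide whether Socs7 has an interaction. The comparisons share libraries, so their counts are not independent of each other.

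The genes around the family were described by 7 lists. Their counts are to be read against the shares of all genes that passed, which were 37.3% between the LPS- groups, 61.4% between the LPS+ groups, 26.7% between the tlr4f/f-lysM-cre groups and 1.27% between the tlr4f/f groups. The ligands that drive JAK-STAT signalling (12 genes, Ifng at 0.116 CPM or less in every library and not tested) were higher in the LPS- tlr4f/f-lysM-cre than in the LPS- tlr4f/f columns in 11 of 11 genes tested, and likewise in 11 of 11 between the LPS+ groups. Csf2, Csf3, Ifnb1, Il12b and Lif were too low to be tested between the tlr4f/f groups. These genes, and Il6 with its 69 counts or less in LPS- tlr4f/f and 13 or less in LPS+ tlr4f/f, passed the filter here only through the tlr4f/f-lysM-cre columns. Being higher was thus fixed in advance for them. Only Ebi3, Il10, Il15, Il27 and Osm could have gone either way. Il27, a cytokine subunit of the IL-12 family, was at 0.504 to 1.71 CPM in LPS- tlr4f/f and at 187 to 452 CPM in LPS- tlr4f/f-lysM-cre, and at 0.691 to 0.808 CPM in LPS+ tlr4f/f and 38.4 to 54.7 CPM in LPS+ tlr4f/f-lysM-cre. Il10, which acts through STAT3, was at 67.2 to 172 CPM in LPS- tlr4f/f-lysM-cre and 5.06 to 7.21 CPM in LPS+ tlr4f/f-lysM-cre, a log2 difference of -4.34 (edgeR adjusted p = 0.00135). In that comparison of the 2 tlr4f/f-lysM-cre groups 9 of 11 ligand genes tested were lower, as Socs1 and Socs3 were. Between the 2 tlr4f/f groups 1 of 6 ligand genes tested was lower (Ebi3, -1.09, adjusted p = 0.0474).

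The JAK kinases, the targets of SOCS1 and SOCS3, were led by Jak2. It was at 28.9 to 37.6 CPM in LPS- tlr4f/f and 780 to 969 CPM in LPS- tlr4f/f-lysM-cre, a log2 difference of 4.68 (edgeR adjusted p = 0.000394). It was at 37.7 to 39.6 CPM in LPS+ tlr4f/f and 333 to 366 CPM in LPS+ tlr4f/f-lysM-cre, a log2 difference of 3.16 (adjusted p = 1.03e-12). Of the 4 kinases, 3 were higher in the first of these comparisons and 4 in the second, 3 were lower in LPS+ than in LPS- tlr4f/f-lysM-cre, and 0 passed between the tlr4f/f groups. Among the STATs, Stat2, Stat3 and Stat5a were higher in LPS- tlr4f/f-lysM-cre than in LPS- tlr4f/f, by 2.53 (edgeR adjusted p = 0.000984), 2.42 (adjusted p = 0.000874) and 1.83 (adjusted p = 0.0139). They were also higher between the LPS+ groups, by 2.41, 1.08 and 1.43, where Stat6 was lower (-0.27, adjusted p = 0.000662). Stat2 and Stat3 were lower in LPS+ than in LPS- tlr4f/f-lysM-cre, at -1.10 (adjusted p = 0.00385) and -1.81 (adjusted p = 0.00192). Between the tlr4f/f groups Stat2 was at -0.96 and Stat3 at -0.45 (both adjusted p = 0.0558).

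Of the receptors (19 genes), 7 were higher and 5 lower in LPS- tlr4f/f-lysM-cre than in LPS- tlr4f/f. Between the LPS+ groups 10 of 18 tested were higher and 7 lower, and of 19 between the tlr4f/f-lysM-cre groups 3 were higher and 5 lower. Il6st encodes gp130, which SOCS3 binds, and was lower in LPS- tlr4f/f-lysM-cre than in LPS- tlr4f/f (-1.54, edgeR adjusted p = 0.00166) and between the LPS+ groups (-1.65, adjusted p = 1.62e-07). Ifnar1, a subunit of the type I interferon receptor, was higher in both (1.33, adjusted p = 0.0180, and 1.40, adjusted p = 5.08e-10). Between the tlr4f/f groups 0 of 18 receptor genes tested passed. The partners of the SOCS box in E3 ligases (6 genes) moved little. Cul2 and Eloc (Tceb1 in the table) were higher in LPS- tlr4f/f-lysM-cre than in LPS- tlr4f/f (0.84 and 0.97), 5 of 6 were higher between the LPS+ groups, with Cul2 at 0.77 the largest, 1 was higher between the tlr4f/f-lysM-cre groups (Rnf7) and 0 passed between the tlr4f/f groups.

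The other inhibitors of JAK-STAT signalling (10 genes) were mixed. In LPS- tlr4f/f-lysM-cre against LPS- tlr4f/f 6 were higher and 2 lower, and between the LPS+ groups 6 were higher and 4 lower. Usp18, which restrains the type I interferon receptor, was the most raised, at 4.22 (edgeR adjusted p = 0.000466) and 4.04 (adjusted p = 7.93e-13), and Pias3, an inhibitor of STAT3, the most lowered, at -1.03 (adjusted p = 0.00985) and -1.07 (adjusted p = 3.49e-07). Between the tlr4f/f-lysM-cre groups 1 was higher and 3 lower, and between the tlr4f/f groups only Usp18 passed (-1.50, adjusted p = 0.0402). The feedback inhibitors of TLR and NF-kB signalling (8 genes) were higher in 8 of 8 in LPS- tlr4f/f-lysM-cre against LPS- tlr4f/f and in 8 of 8 between the LPS+ groups. Tnfaip3, which encodes A20, was at 5.90 (adjusted p = 0.00123) and 3.03 (adjusted p = 3.03e-12). Between the tlr4f/f-lysM-cre groups 5 of the 8 were lower, Dusp1 most (-2.60, adjusted p = 0.00378), and between the tlr4f/f groups 0 passed.

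**Figure D5:**
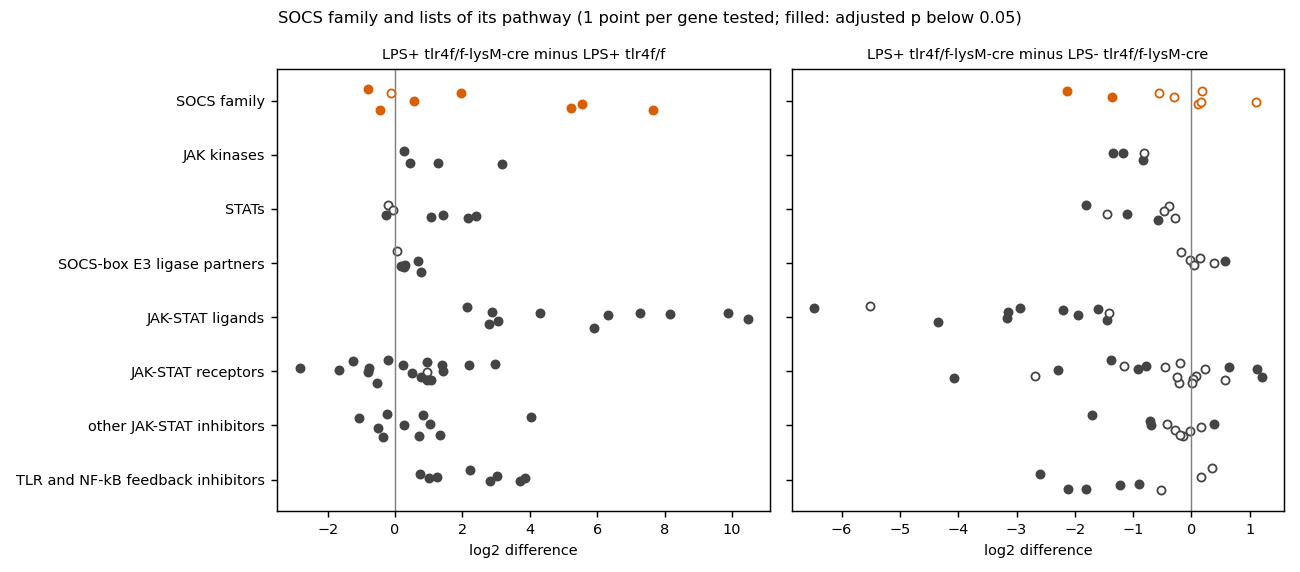
Log2 differences of the SOCS genes (orange) and of the genes of 7 pathway lists (grey), 1 point per gene tested and filled where the adjusted p was below 0.05, for tlr4f/f-lysM-cre against tlr4f/f in the LPS+ columns (left) and LPS+ against LPS- in the tlr4f/f-lysM-cre columns (right). All 11 ligand genes tested lie above 0 on the left, where Csf2, Csf3, Ifnb1, Il6, Il12b and Lif passed the filter only through the tlr4f/f-lysM-cre columns. On the right 9 of the 11 are lower with an adjusted p below 0.05.

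The genes whose levels were most like each member's were sought by Pearson's r of log2 CPM over the 12 libraries among 12669 genes. The libraries fall into separate groups and are shared by all genes, so r is a description and carries no p. Mx2, an interferon-inducible GTPase, was nearest to Socs1 (r = 0.996), followed by Slfn2 and Rnf34 (both 0.995). Mndal and Ikbke, a kinase of the interferon and NF-kB pathways, were nearest to Socs3 (both 0.997), and St3gal4 to Cish (0.992). Sptlc1 was among the nearest to Socs7 (0.973). Pkib was nearest to Socs6 (0.976), Zfp113 to Socs5 (0.955) and Ccdc82 to Socs4 (0.953). Socs2 was below the minimum level for this search.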

How the data were processed

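RNA of 12 BMDM libraries was sequenced. The labels name both rRNA depletion and poly(A) RNA for these libraries, and the paper names poly(A) RNA sequencing. The submitters' processing notes name Trimmomatic 0.36, and both they and the paper name HISAT2 (mm10) and HTSeq. The authors deposited raw read counts for 115140 transcript rows (106335 RefSeq, 8805 Ensembl, of which 8759 were matched to a symbol), with each transcript's length. Transcripts of a gene share reads, as do the 38 rows of the SOCS genes, and the strand setting is not given in the sources used here.

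Per gene the row with the highest total was kept (43131 genes). Testing used edgeR 4.0.16 under R 4.3.3, with its default expression filter, TMM scaling and a robust quasi-likelihood fit, on the 6 libraries compared, or on 12 for the interaction. P-values were adjusted by Benjamini-Hochberg over all genes tested. All 8 SOCS genes passed the filter in every comparison, though Cish and Socs2 would not have passed it from the LPS- tlr4f/f columns alone. Groups followed the column headings, and each comparison was repeated with 2 headings exchanged. The SOCS genes, the lists and the tests were chosen with earlier results of these data known. Named were all SOCS genes, the list genes with the largest and smallest changes, some further list genes, and the nearest genes by r (median CPM of at least 1). Alternatives were DESeq2 1.42.0, RLE factors, 2 other filters, a single fit, the replicate block, sums over rows, and each library left out. Results of some genes are not reported here. The steps were tested on simulated data. No 2 replicates agreed within counting noise (chi-square per degree of freedom of at least 9.79). Counting errors treat reads as independent molecules, which reads without molecular identifiers are not.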

Additional observations from a re-analysis of the deposited data

How the results depend on the processing

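Exchanging the headings turned the comparison of LPS with rest in tlr4f/f from 0 members past the test to 4 (5 with DESeq2), with Socs1 at 5.95 and Socs3 at 8.17 (6.04 and 8.25 with DESeq2) in place of negative values. For LPS in tlr4f/f-lysM-cre it gave 7 members in place of 2 (7 with DESeq2), with Cish at 5.23, Socs1 at 5.54, Socs3 at 7.65, Socs5 at -0.45, Socs6 at -0.79 and Socs7 at 0.55 (5.25, 5.52, 7.64, -0.44, -0.78 and 0.56 with DESeq2). For the genotypes without LPS it gave 0 members in place of 4 (0 with DESeq2), with Socs1 at -0.89 and Socs3 at -1.57 (the same values with DESeq2). For the genotypes with LPS it gave 2 in place of 7 (2 with DESeq2), with Cish at -0.30, Socs1 at -1.36, Socs3 at -2.14, Socs5 at 0.17, Socs6 at 0.18 and Socs7 at -0.55, and with DESeq2 Socs1 at -1.40, Socs3 at -2.18, Socs5 at 0.14, Socs6 at 0.15 and Socs7 at -0.59. These follow from the exchange itself, which swaps the columns compared. Without the libraries of high stromal sum (added after seeing the data) 6 members passed for LPS in tlr4f/f-lysM-cre, with Cish turning to 1.29, 2 between the resting genotypes, and 1 in the interaction. In each of these cases 1 LPS- tlr4f/f-lysM-cre library was left, so that group had no spread of its own. No library is left out of the genotypes with LPS by that setting. The DEG criteria gave 1, 2 and 4 members for LPS in tlr4f/f-lysM-cre, the resting genotypes and the genotypes with LPS. Without a filter 1 member passed for LPS in tlr4f/f-lysM-cre. With at least 10 counts in every library 3 passed for LPS+ tlr4f/f-lysM-cre against LPS- tlr4f/f. Cish and Socs2, with 6 and 8 counts in LPS- tlr4f/f replicate 3, were then not tested. With single libraries left out, counts were 0 to 1 for LPS in tlr4f/f, 1 to 3 for LPS in tlr4f/f-lysM-cre (where Cish ranged from -0.80 to 1.60), 2 to 5 between the resting genotypes and 7 between those with LPS. Summing over transcript rows changed the level by less than 1 SD in 8 of 32 cases of a gene in a group. Summing also raised the total by which CPM divides, from 48380952 to 170332264 counts in LPS- tlr4f/f replicate 1. Socs4, which has 1 row and so kept its counts, was at 5.18 in place of 17.7 CPM in LPS- tlr4f/f. Levels from summed rows are thus on another scale. Of the single-gene values, 750 kept their direction and side of the threshold, 25 newly passed, 22 passed no longer, 33 turned and 24 levels moved. The small counts of Cish and Socs2 in the tlr4f/f columns limit their precision.

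Replicate numbers did not pair the samples (correlations of deviations from -0.04 to 0.47, and in no comparison all above 0.1). With the replicate block, 0, 2, 4 and 7 members became 0, 2, 5 and 7 for LPS in tlr4f/f, LPS in tlr4f/f-lysM-cre and the genotypes without and with LPS, Socs6 being added at -0.54 (edgeR adjusted p = 0.0455), and the other counts did not change with the block.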
